A study of Rattus norvegicus with 4 samples.

Results

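The 10 aldehyde dehydrogenases *Aldh1a1*, *Aldh1a2*, *Aldh1a7*, *Aldh2*, *Aldh3a1*, *Aldh3a2*, *Aldh3b1*, *Aldh4a1*, *Aldh6a1* and *Aldh7a1* were followed across the cell types of the rat anterior pituitary. They were chosen by gene symbol, and all 10 were found among the 30058 genes of the count table. Cells were freshly dispersed from the anterior pituitaries of Sprague Dawley rats, with no genetic or drug treatment named for any group. Females were 44 days old and in diestrus, and males were 59 days old. For each sex the cells of 4 pituitaries were combined and run on 2 lanes of a droplet single-cell RNA-seq device, so the 2 lanes of a sex were technical replicates of 1 pool, and every p-value between the sexes measured lane spread only. Sex, age and pool cannot be told apart in this design.

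Aldehyde dehydrogenases oxidise aldehydes to the corresponding acids with NAD or NADP as cofactor. The ALDH1A enzymes convert retinaldehyde to retinoic acid, a ligand of nuclear receptors. Other members of the family clear aldehydes made by alcohol breakdown and lipid peroxidation, or act inside mitochondria in the breakdown of single amino acids. Folliculostellate cells (FSC) are the S100b-positive, non-hormonal cells of the anterior lobe, which form a network among the hormone-producing cells. ALDH1A enzymes of the pituitary are known, among others, from these cells and from the marginal layer that lines the cleft. The paper reports *Aldh1a1* RNA in FSC of both sexes and in lactotrophs of males. It also stained ALDH1A1 protein in a larger share of prolactin-positive cells in males than in females.

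The 4 lanes held 7861 cells and 86742346 unique molecular identifiers (UMIs, 1 per captured transcript), with a median of 8853 UMIs per cell. Lanes held between 18955509 and 24048021 UMIs, and the median per cell was 7971 and 8559 in the female lanes and 9413 and 9339 in the male lanes. Lanes are named here by sex and number of cells, and lane values are listed in the order female lane of 1868 cells, female lane of 1861 cells, male lane of 2047 cells, male lane of 2085 cells. The Y-linked gene *Eif2s3y* had 0 and 1 UMIs in the female lanes and 2038 and 2100 in the male lanes, while the row of the Y-linked gene *Ddx3y*, at 10, 8, 11 and 14 UMIs, did not separate the sexes. After removal of 1022 cells (outliers in depth or mitochondrial share, doublets, 207 ambiguous and 27 unclassified cells, and pericytes, melanotrophs and posterior pituitary cells), 6839 cells were left: 2312 FSC, 793 corticotrophs (C), 238 gonadotrophs (G), 86 thyrotrophs (T), 1889 somatotrophs (S), 484 lactotrophs (L), 544 leukocytes (Le), 132 endothelial cells (EC) and 361 erythrocytes (E). The 5 hormone-producing types together (HPC: C, G, T, S and L) held 3490 cells. A barcode that also occurred in another lane was carried by 60 cells. The 4 marker genes that defined FSC (*S100b*, *Fxyd1*, *Gstm2* and *Capn6*) summed to between 2906 and 3175 counts per 1000000 UMIs (CPM) in the FSC of each lane (these genes chose the cells, so this is a description and no check of the label).

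The members fell into 3 patterns. *Aldh1a1*, *Aldh1a2*, *Aldh1a7* and *Aldh3a1* were high in FSC and near 0 in most other types. *Aldh2* and *Aldh3b1* were highest in FSC and were also found in some other types, *Aldh2* in G, Le and EC and *Aldh3b1* in Le and EC. *Aldh3a2*, *Aldh6a1* and *Aldh7a1* were spread over FSC, HPC and EC, with *Aldh3a2* in Le at a level like that in S and L. *Aldh4a1* was low everywhere. A level is given as CPM, the UMIs of the gene per 1000000 UMIs of that cell type in a lane. The 3′ chemistry counts 1 end per transcript, so CPM does not grow with transcript length, although capture can still differ between genes. A share of expressing cells is the share above a threshold set for each gene over all cells by Otsu's method, with an exact 95% binomial interval that covers counting error only.

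The upstream sequences of *Aldh1a1* and *Aldh1a2* are shown because these are the retinaldehyde dehydrogenases that were high in FSC and for which a promoter was at hand. Both are the 250 bases before the annotated RefSeq start in the GRCr8 assembly, chr1:227537370-227537619 on the plus strand for *Aldh1a1* and chr8:80758391-80758640 on the plus strand for *Aldh1a2*, with the motifs ATGCAAAT and CCAAT in capitals.
Aldh1a1: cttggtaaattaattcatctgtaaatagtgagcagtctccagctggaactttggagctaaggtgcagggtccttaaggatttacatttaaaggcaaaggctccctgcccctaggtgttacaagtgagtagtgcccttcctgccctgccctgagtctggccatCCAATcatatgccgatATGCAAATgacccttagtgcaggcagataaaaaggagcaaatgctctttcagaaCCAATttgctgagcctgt
Aldh1a2: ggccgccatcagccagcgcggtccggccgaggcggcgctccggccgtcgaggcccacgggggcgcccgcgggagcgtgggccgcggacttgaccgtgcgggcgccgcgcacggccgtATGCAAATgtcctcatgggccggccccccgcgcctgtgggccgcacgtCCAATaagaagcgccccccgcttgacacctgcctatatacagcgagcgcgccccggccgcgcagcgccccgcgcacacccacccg
The octamer ATGCAAAT stood 72 bases before the start of *Aldh1a1* and 133 bases before that of *Aldh1a2*, and in none of the other 5 members with a promoter in the table. It was chosen after the sequences were seen. Searched on both strands, it was in 1.56% of the 33469 promoters of this length. CCAAT stood 88 and 18 bases before the start of *Aldh1a1* and 85 bases before that of *Aldh1a2*, and was in 34.0% of all promoters and in 5 of the 7 members matched. The GC content was 46.4% for *Aldh1a1* and 77.2% for *Aldh1a2*. TATAAA was in 12.9% of all promoters and, of the members, in *Aldh4a1*, while GGGCGG was in 30.5% of all promoters and in *Aldh3a2*, *Aldh3b1* and *Aldh7a1*. Matches describe the letters in this window and were not tested as sites.

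**Figure D1:**
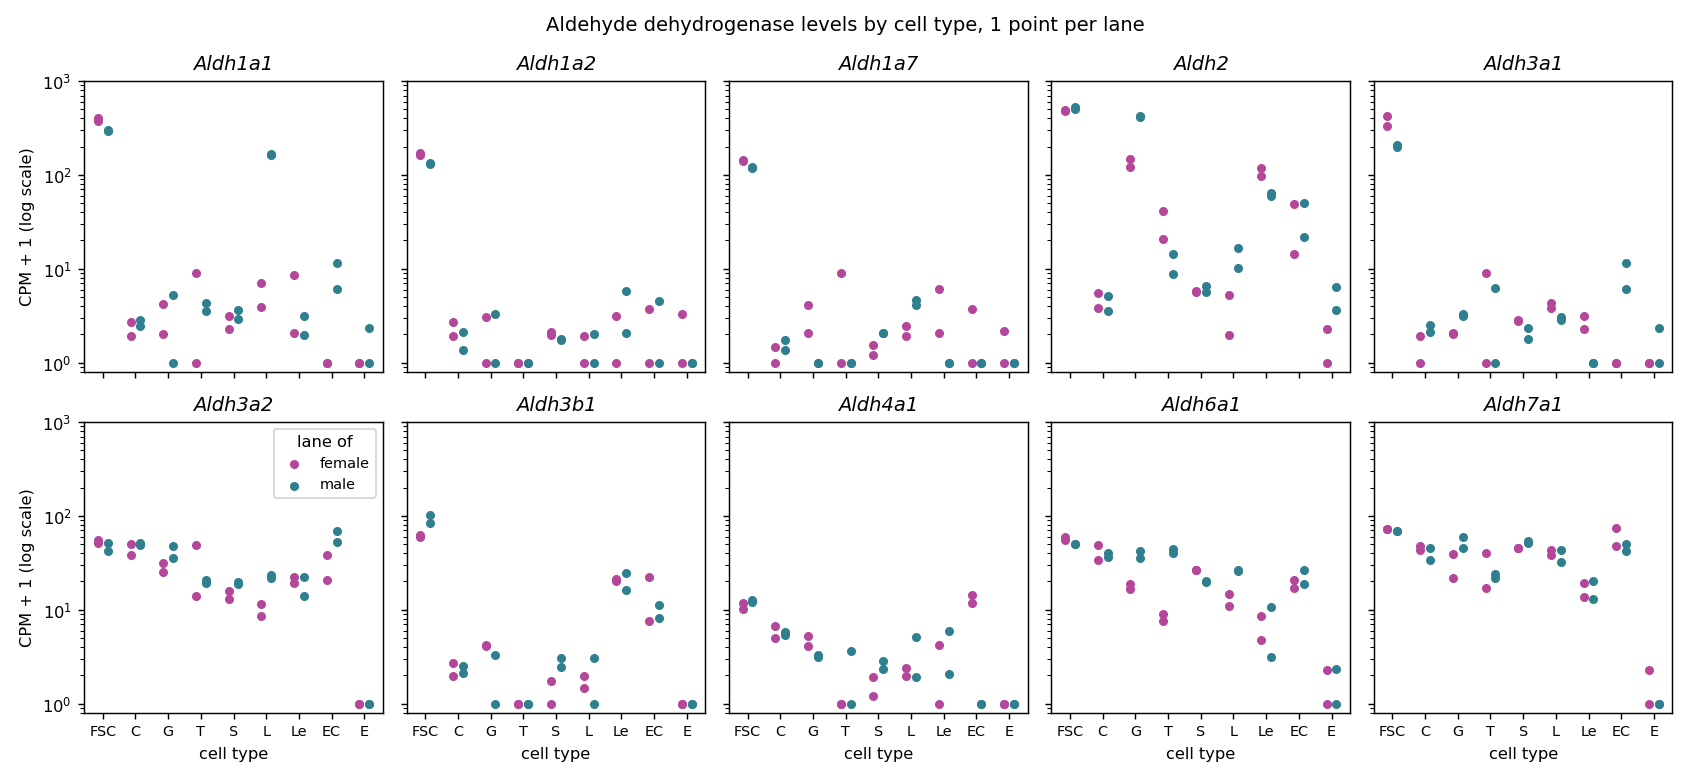
Level of each member in 9 cell types, as CPM + 1 on a log axis, with 1 point per lane (pink for female, blue-green for male). The 4 FSC lanes of *Aldh1a1* lie between 295 and 402 CPM, and in L the male lanes stand at 161 and 165 CPM against 6.13 and 2.87 in the female lanes.

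The first comparison asked where each gene was found and how FSC differed from the hormone-producing cells. In FSC, 7 of the 10 members were higher than in HPC and 0 were lower. Among all 13598 genes tested, 17.2% were called higher and 9.25% lower at an adjusted p under 0.001 in edgeR's quasi-likelihood test with Benjamini-Hochberg adjustment, fitted to sums per cell type and sex. The median log2 fold change of the 10 members was 5.62, against 0.089 over all genes tested. The fit weighs C, G, T, S and L equally. From pooled levels, which rest on no prior count and weigh each of these types by its UMIs, the median over the members was 4.97.

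*Aldh1a2*, which makes retinoic acid in many embryonic and adult tissues, had 169, 164, 134 and 129 CPM in the FSC of the 4 lanes (149 ± 20.4, SD, n = 4 lanes). Pooled over HPC it had 0.83 CPM from 38 UMIs. The lowest FSC lane stood far above every lane of every other type, and the fitted log2 fold change was 8.07 (SE 0.232, adjusted p = 1.18e-12). T had 0 UMIs of *Aldh1a2*, which allows up to 3.11 CPM, so the fitted value partly rests on the prior count, and the ratio of the pooled levels was 177-fold. In FSC 53.9% of cells expressed *Aldh1a2* (interval 51.8 to 55.9%).

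*Aldh3a1*, the cytosolic enzyme known as a crystallin of the cornea and as an oxidiser of medium-chain aldehydes, had 333, 427, 197 and 210 CPM in FSC (292 ± 109, SD, n = 4 lanes). Over HPC the pooled level was 1.51 CPM. The FSC lanes differed more among themselves than for any other member of this pattern, but none came near the other types. The log2 fold change over HPC was 7.0 (SE 0.267, adjusted p = 8.15e-12), and 42.0% of FSC expressed the gene (interval 40.0 to 44.0%).

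*Aldh1a7*, a rodent paralog of *Aldh1a1*, had 143, 141, 121 and 118 CPM in FSC (131 ± 12.9, SD, n = 4 lanes) and 0.917 CPM over HPC. The FSC lanes lay close together and did not overlap any other type. Its log2 fold change was 6.67 (SE 0.322, adjusted p = 1.28e-10), and 49.7% of FSC were above the threshold (interval 47.7 to 51.8%). *Aldh1a1* and *Aldh1a7* are near-identical genes, so reads could have been lost or split between them. The level of *Aldh1a7* was 36.5% of that of *Aldh1a1* in female FSC and 40.1% in male FSC.

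*Aldh1a1*, a cytosolic retinaldehyde dehydrogenase and a common stem cell marker, had 374, 402, 295 and 303 CPM in FSC (343 ± 52.8, SD, n = 4 lanes). Its log2 fold change over HPC was 6.32 (SE 0.523, adjusted p = 6.51e-08), and 55.5% of FSC expressed it (interval 53.5 to 57.6%). Among the other types, L had a mean of 83.7 CPM with an SD of 91.5 over 4 lanes, and no other type averaged above 3.94 CPM. The difference between FSC and L was 2.35 on the log2 scale (adjusted p = 0.0151) and was not called, whereas FSC stood above every other type in the fit. In C, 0 of 793 cells passed the threshold, which allows a share of up to 0.378%, while C was below L by the test (log2 fold change -5.56, adjusted p = 0.000787). S, G, Le, EC and T had values of -4.22 to -4.90 against L. None of them passed the limit (adjusted p from 0.00154 in S to 0.0562 in T). L also differed between the sexes, as given below for the sex comparison.

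*Aldh2*, the mitochondrial enzyme that oxidises acetaldehyde, was the member found in most FSC. It had 475, 486, 529 and 509 CPM there (499 ± 23.8, SD, n = 4 lanes), and 85.9% of FSC expressed it (interval 84.4 to 87.3%). The log2 fold change over HPC was 4.93 (SE 0.259, adjusted p = 3.50e-10). G came next with a mean of 276 ± 166 CPM, followed by Le with 83.9 ± 27.9, EC with 33.0 ± 18.8 and T with 20.2 (SD, n = 4 lanes). L, S, C and E lay between 2.33 and 7.48 CPM. In this order FSC and G did not differ at the limit (0.87, adjusted p = 0.0772), nor did G and Le (Le minus G, -1.09, adjusted p = 0.0293), Le and EC (2.00, adjusted p = 0.00436), or EC and T (0.92, adjusted p = 0.341). EC was above C (3.03, adjusted p = 0.000816). G also differed between the sexes, as given below, while the fit held a sex term common to all types. All G lanes, at 119 to 425 CPM, lay below all FSC lanes, at 475 to 529 CPM.

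*Aldh3b1*, a membrane-bound enzyme that oxidises lipid aldehydes, had 61.9, 58.8, 81.9 and 102 CPM in FSC (76.3 ± 20.2, SD, n = 4 lanes). It had 20.1, 19.3, 23.4 and 15.2 CPM in Le and a mean of 11.4 ± 6.97 in EC, and it had 1.22 CPM over HPC. FSC stood above all other types in every lane. The log2 fold change over HPC was 6.57 (SE 0.339, adjusted p = 6.83e-10), again with 0 UMIs in T, and the ratio of pooled levels was 63.6-fold. EC was lower than FSC (-2.74, adjusted p = 0.000361), and the difference between Le and FSC did not pass the limit (-1.33, adjusted p = 0.00575). In FSC 31.7% of cells expressed *Aldh3b1* and in Le 12.3% did (interval 9.67 to 15.4%).

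The 4 remaining members act in mitochondria or on the endoplasmic reticulum. *Aldh4a1*, which converts the proline breakdown product to glutamate, had 10.8, 9.20, 11.6 and 11 CPM in FSC, and 7.18% of FSC expressed it (interval 6.16 to 8.31%). It was called higher than HPC (2.11, SE 0.441, adjusted p = 0.000874), although the call was lost with DESeq2 (adjusted p = 0.00186) and without the female lane of 1861 cells. *Aldh3a2*, the fatty aldehyde dehydrogenase whose loss causes Sjögren-Larsson syndrome, *Aldh6a1*, of valine and thymine breakdown, and *Aldh7a1*, of lysine breakdown, did not pass the limit. Their log2 fold changes were 0.77, 0.75 and 0.60 with adjusted p-values of 0.00231, 0.0176 and 0.0105. With lanes in place of sums per sex as the libraries, these 3 were called as well, but that fit counts the 2 technical lanes of a pool as separate libraries.

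Within these 3 genes the order of the types differed. *Aldh3a2* averaged 49.2 CPM in FSC, 46.3 in C and 44.1 in EC, and no pair of types in the fit differed at the limit. More C than FSC passed its threshold, 40.2% (interval 36.8 to 43.7%) against 29.5% (interval 27.7 to 31.4%), with 11474 against 6898 median UMIs per cell. *Aldh6a1* averaged 52.9 CPM in FSC, 38.7 in C and 5.80 in Le, and Le was below both (-2.55 against FSC, adjusted p = 0.000161, and -2.30 against C, adjusted p = 0.000444). *Aldh7a1* averaged 69.7 CPM in FSC, 52.4 in EC and 47.5 in S, with Le at 15.6 CPM and below FSC and S (-1.54, adjusted p = 0.000206, and -1.56, adjusted p = 0.000161).

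E served as the measure of RNA from other cells, since mature red cells should hold little of these transcripts. For every member, between 0 and 0.831% of the 361 E passed the threshold, at a median of 8246 UMIs per cell, against 6898 in FSC. RNA from other cells was lower in E than in the other types, with *Gh1* at a mean of 1303 CPM against 2574 to 4417 CPM in the types other than S, so the share in E is a low estimate of that background. When each cell was thinned to 2000 UMIs, the share of FSC with at least 1 UMI was 59.3% for *Aldh2*, 40.4% for *Aldh1a1*, 32.8% for *Aldh3a1*, 24.1% for *Aldh1a2* and 22.2% for *Aldh1a7*, and it was below 20% for the other 5 members.

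**Figure D2:**
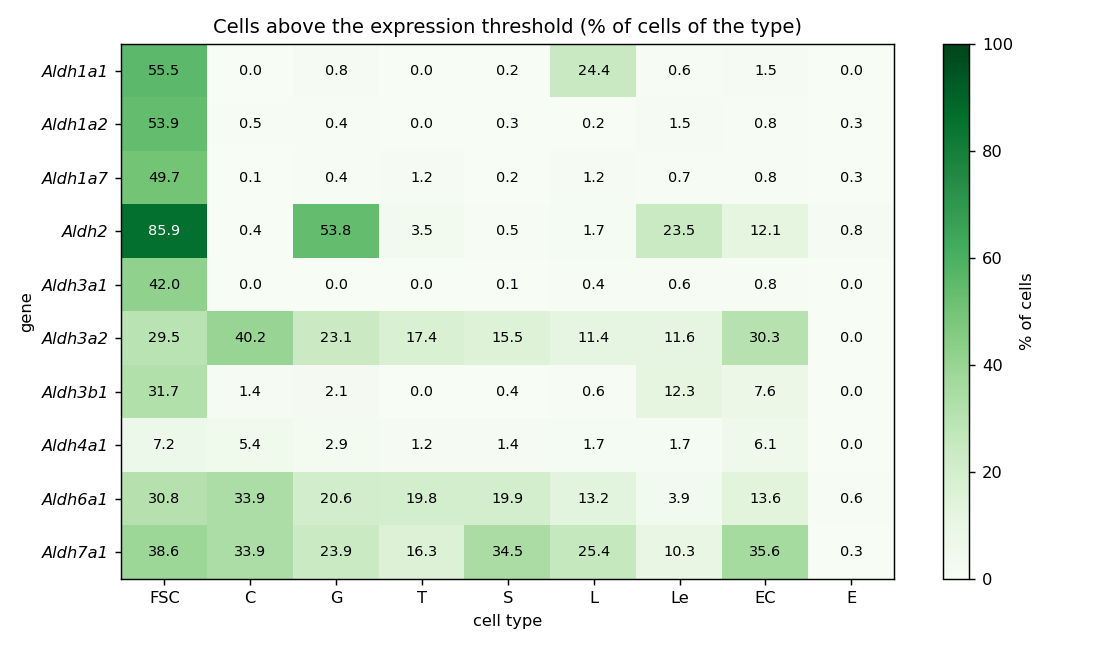
Percent of cells above the expression threshold for each member (vertical axis) in each of the 9 cell types (horizontal axis), all lanes pooled, with the value in each field. *Aldh2* has the highest share in FSC, 85.9%, while *Aldh1a2*, *Aldh1a7* and *Aldh3a1* stay at or below 1.5% outside FSC.

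Genes with a profile like that of a member were sought over the 36 sums of 9 types and 4 lanes, which share lanes and depth. For *Aldh1a2* these were *Echdc2*, *Cdh26* and *Nwd1* (Pearson r of 0.953, 0.952 and 0.95). For *Aldh1a1* they were *Slc1a3*, *Fxyd3* and *Colq* (0.908, 0.904 and 0.904), and for *Aldh3a1* *Tbata*, *Hepacam* and *Ildr2* (0.928, 0.924 and 0.920). *Aldh1a7* was closest to *Lypd1*, *Adamts5* and *Cldn10* (0.934, 0.933 and 0.932), and *Aldh2* to *Pdlim2*, *Smim3* and *Gamt* (0.928, 0.900 and 0.868). *Aldh3b1* was closest to *LOC102554622*, *Trip6* and *Il33* (0.935, 0.933 and 0.927). For the widely found members these were *Thoc5*, *Snx4* and *Cul1* for *Aldh3a2* (0.968, 0.967 and 0.966), *Cyb5b*, *Laptm4a* and *LOC103691125* for *Aldh7a1* (0.967, 0.961 and 0.961), and *Mageh1*, *Arhgap5* and *Thra* for *Aldh6a1* (0.928, 0.925 and 0.919). Among the members themselves, r was 0.885 between *Aldh1a7* and *Aldh3a1* and 0.883 between *Aldh3a2* and *Aldh7a1*.

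Within FSC, the number of members per cell varied, and some pairs departed from the product of their shares. Of the genes *Aldh1a1*, *Aldh1a2*, *Aldh1a7* and *Aldh3a1*, 236 FSC (10.2%) expressed 0, 590 (25.5%) 1, 663 (28.7%) 2, 557 (24.1%) 3 and 266 (11.5%) all 4. The median depth of these cells went from 6538.5 UMIs for cells with 0 to 7455.5 for cells with all 4. *Aldh1a1* and *Aldh3a1* were expressed together in 676 FSC, 1.25 times the product of their shares (1.19 to 1.4 over the 4 lanes). The ratio was 1.16 for *Aldh1a1* with *Aldh1a7* (740 cells, lanes 1.13 to 1.19) and 1.09 for *Aldh1a1* with *Aldh1a2* (757 cells, lanes 1.04 to 1.12). *Aldh3b1* went the other way with *Aldh1a1* (0.804, 327 cells, lanes 0.734 to 0.844) and *Aldh3a1* (0.800, 246 cells, lanes 0.699 to 1.01). With *Aldh1a2* (0.971, lanes 0.884 to 1.06) and *Aldh1a7* (1.03, lanes 0.967 to 1.11) it did not. *Aldh2* lay between 0.961 and 1.04 with every other member, but with 1985 of the 2312 FSC expressing *Aldh2* this ratio can rise little above 1. After thinning to 2000 UMIs per cell the ratio was 1.31 for *Aldh1a1* with *Aldh3a1* and 0.699 for *Aldh1a1* with *Aldh3b1*. It was 1.26 for *Aldh1a1* with *Aldh1a7* and 1.18 for *Aldh1a1* with *Aldh1a2*, the latter with lanes from 0.864 to 1.27. For *Aldh1a2* with *Aldh1a7* it was 0.953 (lanes 0.881 to 1.03). At this depth 28.5% of FSC had a UMI of 0 of the 4 genes and 1.21% of all 4. These ratios are descriptions over cells of 1 pool per sex, with no test.

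**Figure D3:**
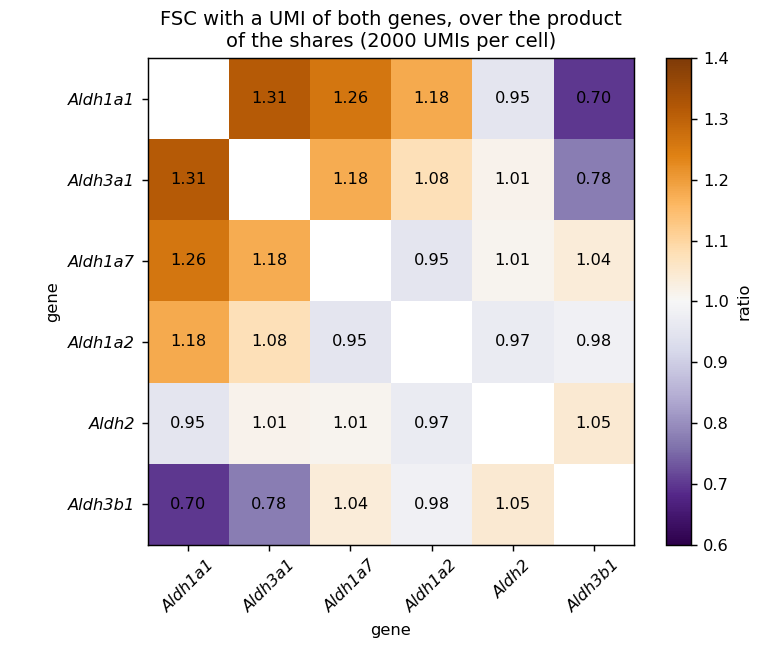
Ratio of the share of FSC with a UMI of both genes to the product of the single shares, for 6 members on both axes, after thinning each cell to 2000 UMIs. The highest ratio is 1.31 (*Aldh1a1* with *Aldh3a1*) and the lowest is 0.699 (*Aldh1a1* with *Aldh3b1*).

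FSC were also split by 2 genes that are no members, *Gpha2*, which encodes a glycoprotein hormone subunit, and *Krt7*, which encodes a keratin. This asked whether the enzymes differ between FSC that held a UMI of 1 or the other gene. The paper lists *Krt7* among the genes dominant in G, and whether some of its UMIs in FSC came from G was not tested. The 4 lanes entered the fit, and as they come from 1 pool per sex, these p-values too measure lane spread only. A UMI of *Gpha2* without *Krt7* was found in 1345 FSC (58.2%) and a UMI of *Krt7* without *Gpha2* in 76 (3.29%). Another 81 FSC (3.50%) had UMIs of both genes and 810 (35.0%) of neither, and these were left out. Below, *Gpha2*-positive and *Krt7*-positive mean a UMI of that gene without the other, so most *Krt7*-bearing FSC are not among the *Krt7*-positive cells. *Aldh1a1*, *Aldh3a1* and *Aldh1a2* were higher in the *Gpha2*-positive cells, and 0 members were lower. Of the 10835 genes tested, 2.46% were called higher and 1.32% lower.

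*Aldh1a1* had 513, 529, 404 and 447 CPM in *Gpha2*-positive and 44.0, 84.0, 35.2 and 61.2 CPM in *Krt7*-positive FSC. The groups did not overlap, and the fitted difference was 3.29 on the log2 scale (SE 0.179, adjusted p = 2.25e-18). *Aldh3a1* had 436, 550, 255 and 279 CPM against 28.0, 28.0, 38.4 and 38.7 CPM. Again all lanes of the first group stood above all lanes of the second (3.36, SE 0.207, adjusted p = 9.82e-17). *Aldh1a2* differed less, with 197, 172, 126 and 120 CPM against 64.0, 56.0, 89.7 and 83.8 CPM (1.01, SE 0.196, adjusted p = 0.000221), and was called in 5 of 12 alternative settings. *Aldh1a7* (0.75, adjusted p = 0.00373) and *Aldh3b1* (-0.63, adjusted p = 0.0248) did not pass the limit. A UMI of a marker is easier to find in a deeper cell, and the *Krt7*-positive sums rest on few cells per lane.

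The comparison of the sexes asked whether the level of a member within a type differed between males and females. The clearest differences lay outside FSC, with *Aldh1a1* higher in male L and *Aldh2* higher in male G. In FSC, *Aldh3a1*, *Aldh1a1* and *Aldh1a2* were lower in males, by less than 1 on the log2 scale.

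In L, *Aldh1a1* had 6.13 and 2.87 CPM in the female lanes and 161 and 165 CPM in the male lanes, from 19 female and 337 male UMIs. Both male lanes were far above both female lanes and close to each other. The log2 fold change, male over female, was 4.5 (SE 0.235, adjusted p = 2.38e-20). It was the only 1 of 5 members tested in L to be called. Of the 8627 genes tested there, 5.83% were called higher and 17.5% either way. Of female L, 1 of 226 cells expressed *Aldh1a1* (0.442%, interval 0.0112 to 2.44%), and of male L 117 of 258 did (45.3%, interval 39.2 to 51.6%). The female L were deeper, with a median of 18316 UMIs against 7253.5 in the male L, and in cells thinned to 2000 UMIs the shares with at least 1 UMI were 0.442% and 25.6%.

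*Aldh1a7* had 0.944 and 1.43 CPM in female L and 3.63 and 3.09 CPM in male L, so in males it stood at 2.08% of the *Aldh1a1* level, against 40.1% in male FSC. The summed level of *Aldh1a2*, *Aldh1a7* and *Aldh3a1* in L was 4.72, 4.78, 5.45 and 6.19 CPM in the 4 lanes. The summed FSC markers in L were at 12.7, 14.3, 63.6 and 10.3 CPM, with the highest value in the male lane of 2047 cells. Of the L, 179 of 226 female and 230 of 258 male cells had no UMI of any FSC marker, and over those cells alone the difference in *Aldh1a1* was 4.75 (adjusted p = 9.09e-15). Male L with *Aldh1a1* had 172114 CPM of *Prl* and those without had 184696 CPM, while *Fxyd1* was at 51.7 and 4.23 CPM in the same cells. Of the 51 *Fxyd1* UMIs in male L, 50 came from the lane of 2047 cells, so this difference rests on that lane. Among the other FSC markers, *S100b* was at 11.2 and 2.54 CPM and *Gstm2* was slightly higher with *Aldh1a1*. *Capn6* ran the other way, at 2.25 and 5.08 CPM.

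Because a sex difference in 1 type and not in another can come from the limit alone, the difference between types was tested. The male over female change of *Aldh1a1* was 4.90 larger in L than in FSC on the log2 scale (SE 0.226, adjusted p = 1.11e-14). Here 2.16% of the 12837 genes were called higher and 5.62% lower, and *Aldh1a1* was the only member of 10 called. *Aldh2* (1.5, adjusted p = 0.0269) and *Aldh7a1* (-0.67, adjusted p = 0.0230) did not pass the limit.

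In G, *Aldh2* had 145 and 119 CPM in the female lanes and 425 and 414 CPM in the male lanes. Both male lanes were above both female lanes and below the 4 FSC lanes. The log2 fold change was 1.4 (SE 0.133, adjusted p = 2.94e-06), and 1 of 4 members tested in G was called. Of the 6886 genes tested there, 1.93% were called higher and 4.44% either way. Of female G, 51 of 146 expressed *Aldh2* (34.9%, interval 27.2 to 43.3%), and of male G 77 of 92 did (83.7%, interval 74.5 to 90.6%). In cells thinned to 2000 UMIs the difference was 1.05 and was not called (adjusted p = 0.0536). The summed FSC markers in G were at 33.2, 19.0, 6.96 and 25.7 CPM, and without cells that had a UMI of them the difference was 1.18 (adjusted p = 6.11e-06). *Lhb*, the luteinizing hormone subunit, was at 45656 CPM in female G with *Aldh2* and at 83076 CPM in those without, and at 28602 and 58265 CPM in males.

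**Figure D4:**
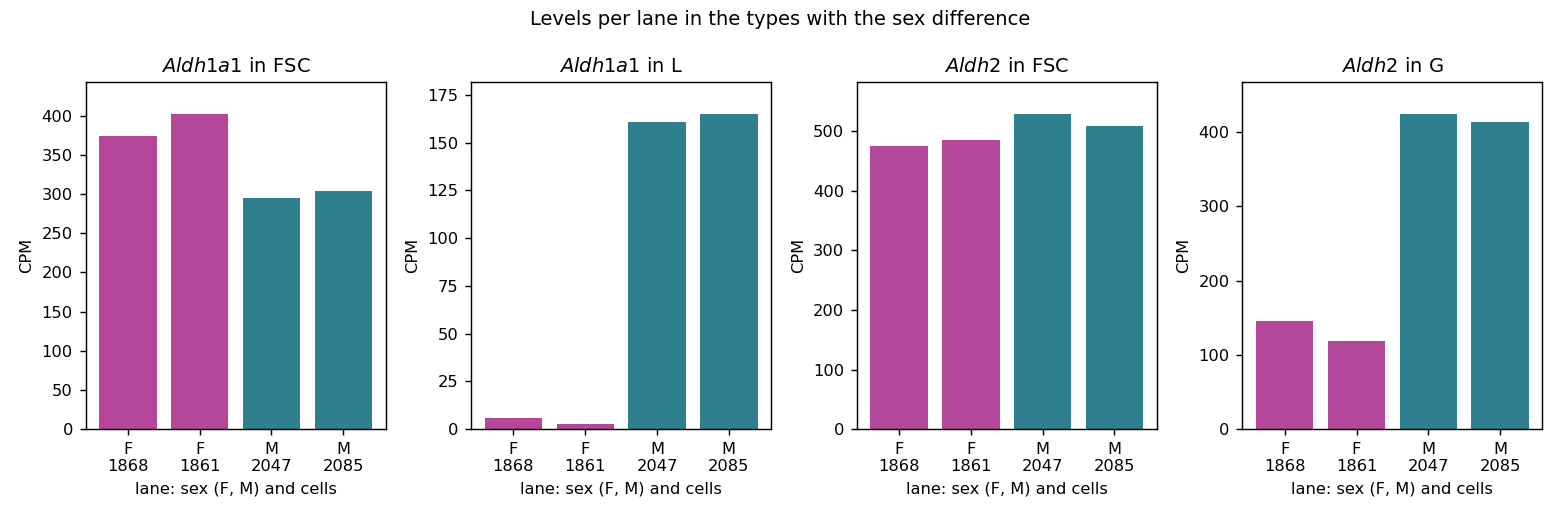
Level (CPM, bars from 0) in each lane (F, female; M, male; number of cells in the lane) of *Aldh1a1* in FSC and L and of *Aldh2* in FSC and G. *Aldh1a1* in L is at 6.13 and 2.87 CPM in female and 161 and 165 CPM in male lanes, and *Aldh2* in G is at 145 and 119 against 425 and 414 CPM.

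In FSC all 10 members were tested and 3 were lower in males, against 1.62% of 12886 genes called lower. *Aldh3a1*, at 333 and 427 CPM in females and 197 and 210 CPM in males, changed by -0.94 (SE 0.0897, adjusted p = 5.50e-06). *Aldh1a1* changed by -0.41 (SE 0.0545, adjusted p = 0.000142) and *Aldh1a2* by -0.38 (SE 0.0619, adjusted p = 0.000941). The female lanes of all 3 lay above the male lanes. Of female FSC 51.9% and of male FSC 32.1% expressed *Aldh3a1*, and 59.1% and 51.9% expressed *Aldh1a1*. *Aldh3b1* ran in the opposite direction, expressed in 24.6% of female and 38.7% of male FSC, with a change of 0.57 that did not pass the limit (SE 0.104, adjusted p = 0.00210). *Aldh1a7* was at -0.28 (adjusted p = 0.00989). The calls in FSC depended on single lanes. Without either female lane 0 of all genes were called in FSC, and *Aldh1a2* was called in 2 of 11 alternative settings, *Aldh1a1* in 6 and *Aldh3a1* in 8.

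In the remaining types 0 members were called. This was so for 4 tested in C (background 0.523%), 6 in S (10.5%), 4 in Le (0.422%) and 3 in EC (0.793%), the background being the share of all genes called either way in that type. At an unadjusted p under 0.05, 0 members passed in C, 2 in S, 1 in Le and 1 in EC. DESeq2 called 0 members in these 4 types as well, with no adjusted p given for some low ones. In Le, *Aldh2* had 117 and 96.6 CPM in females and 63.2 and 58.6 CPM in males, without overlap, and the change of -0.78 missed the limit (SE 0.175, adjusted p = 0.0331). In S, *Aldh6a1* changed by -0.47 (adjusted p = 0.00349). In T no member passed the filter on low counts, and *Aldh6a1* had 8.02 and 6.57 CPM in female T, each from 1 UMI in 18 cells, and 38.9 and 43.0 CPM in male T, from 15 and 13 UMIs.

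**Figure D5:**
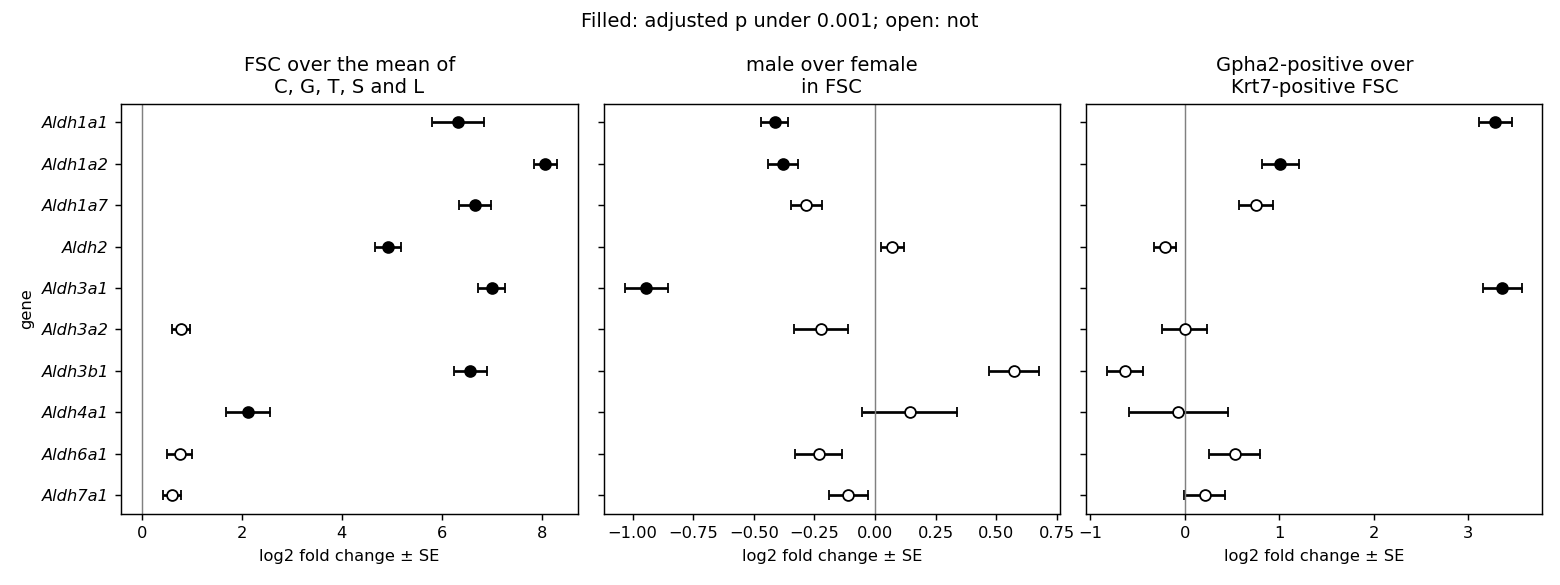
Log2 fold change with its SE for the 10 members in FSC over HPC, in male over female FSC, and in *Gpha2*-positive over *Krt7*-positive FSC, with filled points at an adjusted p under 0.001. *Aldh3a1* is filled in each panel, at 7.0, -0.94 and 3.36.

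Scaling mattered for the comparisons of the sexes. With library sizes alone in place of TMM factors, the median of all genes, male over female, moved to 0.67 in L and 0.28 in G, and to 0.57 for the difference of L and FSC. The calls in L then went from 503 higher and 1006 lower to 2471 higher and 329 lower, those in G from 133 and 173 to 299 and 142, and those for the difference of the types from 277 and 722 to 1425 and 207. *Aldh1a1* in L was 5.16 under that scaling, with the same direction, and above the shifted median.

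The genes around these enzymes were given by lists. Of 10 other aldehyde dehydrogenases 4 were tested in FSC over HPC, with *Aldh3b2*, a neighbour and close paralog of *Aldh3b1*, higher (8.70, SE 0.534, adjusted p = 4.99e-07) and *Aldh5a1*, of GABA breakdown, lower (-1.30). Of 23 retinoid genes 13 were tested, 4 were higher and 1 was lower. The retinoic acid receptor *Rarb* was at 5.47, the retinol dehydrogenase *Rdh10* at 3.29 and the retinoid X receptor *Rxrg* at -3.09. Of 16 other alcohol and aldehyde oxidoreductases 12 were tested, and 4 were higher and 0 lower, with *Maob* at 7.55, *Aox1* at 4.93, *Cbr3* at 4.24 and *Adh5* at 1.60. Of 16 partner enzymes of the amino acid routes of *Aldh4a1*, *Aldh6a1* and *Aldh7a1*, 14 were tested, 4 were higher and 2 lower. *Pycr1*, which makes proline, was at -4.69, *Bcat1* at -3.71, *Hoga1* at 2.51 and *Oat* at 1.81. The paper lists *Hoga1* among the genes dominant in G. The contrast is with the mean of C, G, T, S and L, so 2.51 does not place *Hoga1* highest in FSC. The medians of the 4 lists were 0.50, 0.97, 0.45 and 0.03, against 0.089 over all genes, and the counts are to be read against the 17.2% of all genes called higher and the 9.25% called lower.

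In L, where *Aldh1a1* was higher in males, *Rbp4*, the plasma retinol carrier, ran the other way with 115 and 147 CPM in the female and 4.54 and 6.19 CPM in the male lanes (-5.25). In S, by contrast, *Rbp4* was higher in males, at 275 and 261 CPM in the female and 683 and 748 CPM in the male lanes (1.36), as were *Rxrg* (1.57) and *Dhrs3* (0.71), and 0 of the 14 retinoid genes tested there were lower, against 4.83% of all genes called higher and 5.67% lower in S. Of the 8 retinoid genes tested in L, *Rbp4* and the retinaldehyde reductase *Dhrs3* (-3.34) were lower in males and 0 were higher, against 11.7% of all genes called lower in L. Of the 12 partner enzymes tested in L, *Pycr1* (-3.28) and *Oat* (-1.36) were lower in males, a share near that background. In G the oxidoreductase *Akr1b1* was higher in males (1.54). In FSC *Oat* was lower in males (-0.72). In the split of FSC by marker, *Oat* was higher in *Gpha2*-positive cells (0.78).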

How the data were processed

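Dispersed anterior pituitary cells were profiled on the 10X Genomics 3′ v2 chemistry. The authors aligned and counted reads with Cell Ranger 2.1 against NCBI rat gene models with lengthened 3′ ends. They merged the 4 lanes with depth equalised by mapped reads, and deposited 1 table of UMI counts per gene and cell. Lanes were tied to sex by the numbers of cells per lane that the study gives. Cells were typed anew from the study's marker genes, with outliers, doublets (195 cells), ambiguous (207) and unclassified (27) cells and non-anterior cells removed, and 188 of the cells kept took their type from nearest neighbours. UMIs were summed per type and lane (per type and sex for FSC against HPC) and tested with the quasi-likelihood test of edgeR 4.0.16 (R 4.3.3), with TMM factors, filterByExpr at a minimum count of 10, Benjamini-Hochberg adjustment over all genes tested and a limit of 0.001. Erythrocytes stayed out of the fit across types. Pairs of types came from the same fit, each adjusted over all genes. The SE of a log2 fold change is its size over the root of F. Shares, co-detection and intervals were computed in Python 3.11.15 (numpy 2.4.6, scipy 1.17.1, pandas 2.3.3), with an allowance of 3 counts where a count was 0.

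All 10 members are named. Of each list at most 4 genes per comparison are named, those past the limit with the largest change, except 1 gene that is not reported here, and the 3 most similar genes were taken for each member expressed in at least 20% of the cells of a type. Members and lists were chosen with earlier results of these data known. Promoters came from RefSeq (GRCr8), where 9 of 10 members matched by symbol and 7 had a promoter. The paper names the NCBI Rnor6 genome for the counts, so coordinates of GRCr8 are not those of the count table. Alternatives were DESeq2 1.42.0, library sizes alone, no filter, outliers kept, marker-typed cells only, thinning to 2000 UMIs, lanes left out, erythrocytes in the fit, hormone genes removed and other definitions. Leaving out L and G cells with FSC-marker UMIs was added after seeing the data. The 2 lanes of a sex differed by more than sampling noise (chi-square per degree of freedom 3.34 for females and 2.80 for males).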

Additional observations from a re-analysis of the deposited data

Results flagged for a closer look

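The change of *Aldh1a1* between males and females differed between L and FSC, by a test of that difference. It was 4.90 larger in L on the log2 scale (SE 0.226, adjusted p = 1.11e-14 in edgeR's quasi-likelihood test with Benjamini-Hochberg adjustment). In both male lanes *Aldh1a1* was above both female lanes in L, and in both male lanes it was below both female lanes in FSC. The value lay between 4.42 and 6.20 in the 12 alternative settings and passed the limit in all 12.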

How the results depend on the processing

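The number of members called in FSC over HPC was 7, with 6 to 10 under the alternatives (10 where technical lanes were counted as libraries) and 6 to 8 when a lane was left out, and *Aldh4a1* was the member whose call was lost. The difference of L and FSC held for *Aldh1a1* in each setting. The split by *Gpha2* and *Krt7* gave 3 members, with 2 to 4 under the alternatives, 2 to 3 when a lane was left out, and only 14 *Krt7*-positive cells at a minimum of 2 UMIs. The calls between the sexes were the least stable. Over all types there were 5, which became 2 without the filter on low counts, 3 with cells thinned to 2000 UMIs, and 2 to 4 when a lane was left out, the cause of the drop not being tested. Without the filter 1 of 21230 genes was called in FSC. The number of members expressed in at least 20% of FSC was 9, and 5 after thinning, which lowers every share by its construction. For single members, all were followed through the settings in FSC over HPC. In the other comparisons only those with an unadjusted p under 0.05 in the main fit were followed. No value that was followed changed direction. Of these log2 fold changes, 240 values kept their side of the limit, 10 passed it newly and 14 no longer did. With a lane left out these numbers were 125, 2 and 13. Any value without an adjusted p was counted as kept, and a member that missed the filter in a setting gave no value there. Of the shares in FSC, 16 moved beyond their interval and 14 did not. Counting error limited T most, where 965327 UMIs in all gave 0 UMIs for some members. No paired analysis was possible between the sexes because the lanes of the count table could not be assigned to the replicate numbers in the labels. The sexes were also separate pools of different rats, so equal replicate numbers would not have made pairs. The split of FSC by *Gpha2* and *Krt7* did carry a term for lane in its main fit.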

Other observations

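The small groups left out of the types above also held members. In 51 pericytes, *Aldh1a1* was at 167 CPM (61 UMIs), *Aldh2* at 148 CPM (54 UMIs) and *Aldh1a2* at 74.0 CPM (27 UMIs), while *Aldh1a7* and *Aldh3b1* had 0 UMIs and *Aldh3a1* had 2. The first 2 were each expressed in 41.2% of these cells. In 59 posterior pituitary cells, *Aldh2* was at 266 CPM and expressed in 59.3% of cells, and *Aldh1a1* was at 111 CPM. *Aldh3a1* was at 84.2 CPM there, but 22 of its 56 UMIs came from 4 female cells, which also held *Capn6* at 520.2 CPM and *Gstm2* at 413 CPM, and it was at 55.8 CPM in the 55 male cells. In 60 melanotrophs, *Aldh6a1*, *Aldh7a1* and *Aldh3a2* were at 45.5, 42.8 and 41.4 CPM, whereas *Aldh1a1* had 9 UMIs and *Aldh1a7* had 0. These are pooled levels without replicates, since the groups hold too few cells per lane.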
